A study of Homo sapiens with 8 samples.

Results

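The mitochondrial ribosomal protein genes are the nuclear genes whose products, with RNA made in the mitochondrion, build the mitochondrial ribosome. They were taken as every gene whose symbol is MRPL or MRPS followed by digits and an optional letter, without pseudogenes. This gave 78 of the 43627 genes in the deposited tables, 49 named for the large subunit (MRPL) and 29 for the small subunit (MRPS). They lie on 21 chromosomes, 8 of them on chromosome 17. Levels were measured by RNA-seq in MDA-MB-231 cells, an established human triple-negative breast cancer line, in the 8 libraries of the series. Cells received 0.5 µM of the compound EMD37 for 12 h or 24 h, or DMSO vehicle for the same times, and each group has 2 libraries, A and B. The series title names endoplasmic reticulum stress in cancer cells as its subject. All groups are the same line. Nothing in the labels says that A and B came from separate cultures, so p-values here reflect only the spread between libraries, which may be technical.

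Mitochondrial ribosomes translate the few proteins encoded by mitochondrial DNA, all of them subunits of the respiratory chain and ATP synthase. Their proteins are encoded in the nucleus, made in the cytosol and imported. Some descend from bacterial ribosomal proteins and others are found only in mitochondria. The small subunit binds and decodes the mRNA, and the large subunit joins the amino acids and holds the exit tunnel, which faces the inner membrane. Many of these genes are known for compact promoters with sites for NRF1, for GABP (a factor of the ETS family) and for YY1.

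Short stretches of 10 promoters are shown because they hold the letters of those 3 kinds of site, in members that the results below describe. Sequences are from the RefSeq promoter table on GRCh38, 250 bases before to 50 after each start, which held 69 of the 78 members. Capitals mark the match and lower case its flanks, 5′ to 3′ on the gene's strand.
MRPL16, ETS letters, chr11:59810769-59810793, minus strand: tgaacacaaCTTCCGGccccactga
MRPL40, ETS letters, chr22:19432525-19432549, plus strand: ggcgcacgcCCGGAAGcggcgaggg
MRPL51, ETS letters, chr12:6493351-6493375, minus strand: gcaggcggaCCGGAAGcactgaggc
MRPS34, ETS letters, chr16:1773138-1773162, minus strand: ttccggtgaCTTCCGGccggaccgc
MRPL17, NRF1 letters, chr11:6683403-6683430, minus strand: ggctctgatGCGCATGCGCaaacacgtt
MRPS33, NRF1 letters, chr7:141015089-141015116, minus strand: agccttactGCGCAGGCGCcaggtacac
MRPS18B, YY1 letters, chr6:30617854-30617880, plus strand: gcgtacgtcAAGATGGCGgcgtctgta
MRPL37, YY1 letters, chr1:54200190-54200216, plus strand: gcgcgcggcAACATGGCGgggtccagg
MRPS24, YY1 letters, chr7:43869481-43869507, minus strand: gcttggcccAAGATGGCGgcctccgtg
MRPS30, YY1 letters, chr5:44808951-44808977, plus strand: tcgcgggcaAAGATGGCGgcggccagg

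The ETS letters, CCGGAAG on either strand, stood in 29 of the 69 member promoters (42%), against 10.7% of all 27305 promoters in the table and 14.2% of 15843 promoters of protein-coding genes. The YY1 letters, AANATGGCG on either strand, stood in 18 (26.1%), against 3.37% of all promoters and 4.81% of protein-coding ones. In 15 of these 18 the first match lay after the start, and in 14 the match held the annotated start codon. The NRF1 letters, GCGCA, any base and GCGC on either strand, stood in 8 (11.6%), against 6.28% and 8.58%. In all, 47 members held at least 1 of the 3 motifs and 22 held none. A match describes letters and not a bound site.

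Reads counted per library ranged from 8.99 M to 11.44 M (M, mega), and levels are given as CPM, counts per mega of reads counted, after scaling by the TMM method. Of the 78 members, 73 stood in the count table, and 72 of these passed the filter on low counts and were tested with 14850 genes in all. MRPL53, a mitochondria-specific large subunit protein, did not pass: it had 0 or 1 read in each library, below a floor of 3 reads. The other 5 members, MRPL12, MRPL45, MRPL46, MRPS6 and MRPS21, stood only in the normalized table. Their reads were recovered from it and tested in a joined fit of 17863 genes, and they are described apart. The 6 marker genes of MDA-MB-231 as a mesenchymal line summed to between 3810 and 4600 CPM, with 5 above 1 CPM on average. The 7 luminal epithelial markers summed to at most 8.96 CPM, the 6 fibroblast markers to at most 5.25 CPM and the 5 leukocyte markers to at most 2.05 CPM. Above 1 CPM on average were 3 of the luminal, 1 of the fibroblast and 0 of the leukocyte markers. The libraries of vehicle at 24 h differed from each other with the GC content of genes (B minus A on the log2 scale against GC percent, r = 0.43 across genes, which are not independent replicates), more than those of the other groups (r from -0.20 to 0.24).

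After 24 h of EMD37 the mitochondrial ribosomal protein mRNAs were mostly lower. Of the 72 tested members, 29 fell (40.3%) and 1 rose (1.39%), by the quasi-likelihood test of edgeR at an adjusted p below 0.05, Benjamini-Hochberg adjusted over all genes tested. Of all genes tested, 21.1% fell and 19.6% rose, 40.7% in either direction. Among the 11393 genes with mean levels within the members' range, 24.6% fell and 21.4% rose. The members' median log2 fold change was -0.25 (quartiles -0.42 and -0.059), and that of all genes -0.033. The log2 fold change was below 0 in 63 members (87.5%), as in 52.4% of all genes. The falls were modest, from 0.27 to 0.91 on the log2 scale with a median of -0.45, and the mRNA that fell most, MRPL16, stood at 0.531 of its vehicle level. In all 29 both EMD37 libraries lay below both vehicle libraries. Over all 72, the EMD37 libraries lay below in 47 and above in 4, while 21 overlapped; for all genes these shares were 35.4% below and 31.4% above. In bulk RNA, fewer cells of one kind and less of an mRNA per cell cannot be told apart. Without library A of EMD37 at 24 h, 17 members were called lower, with 13.6% of all genes.

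**Figure D1:**
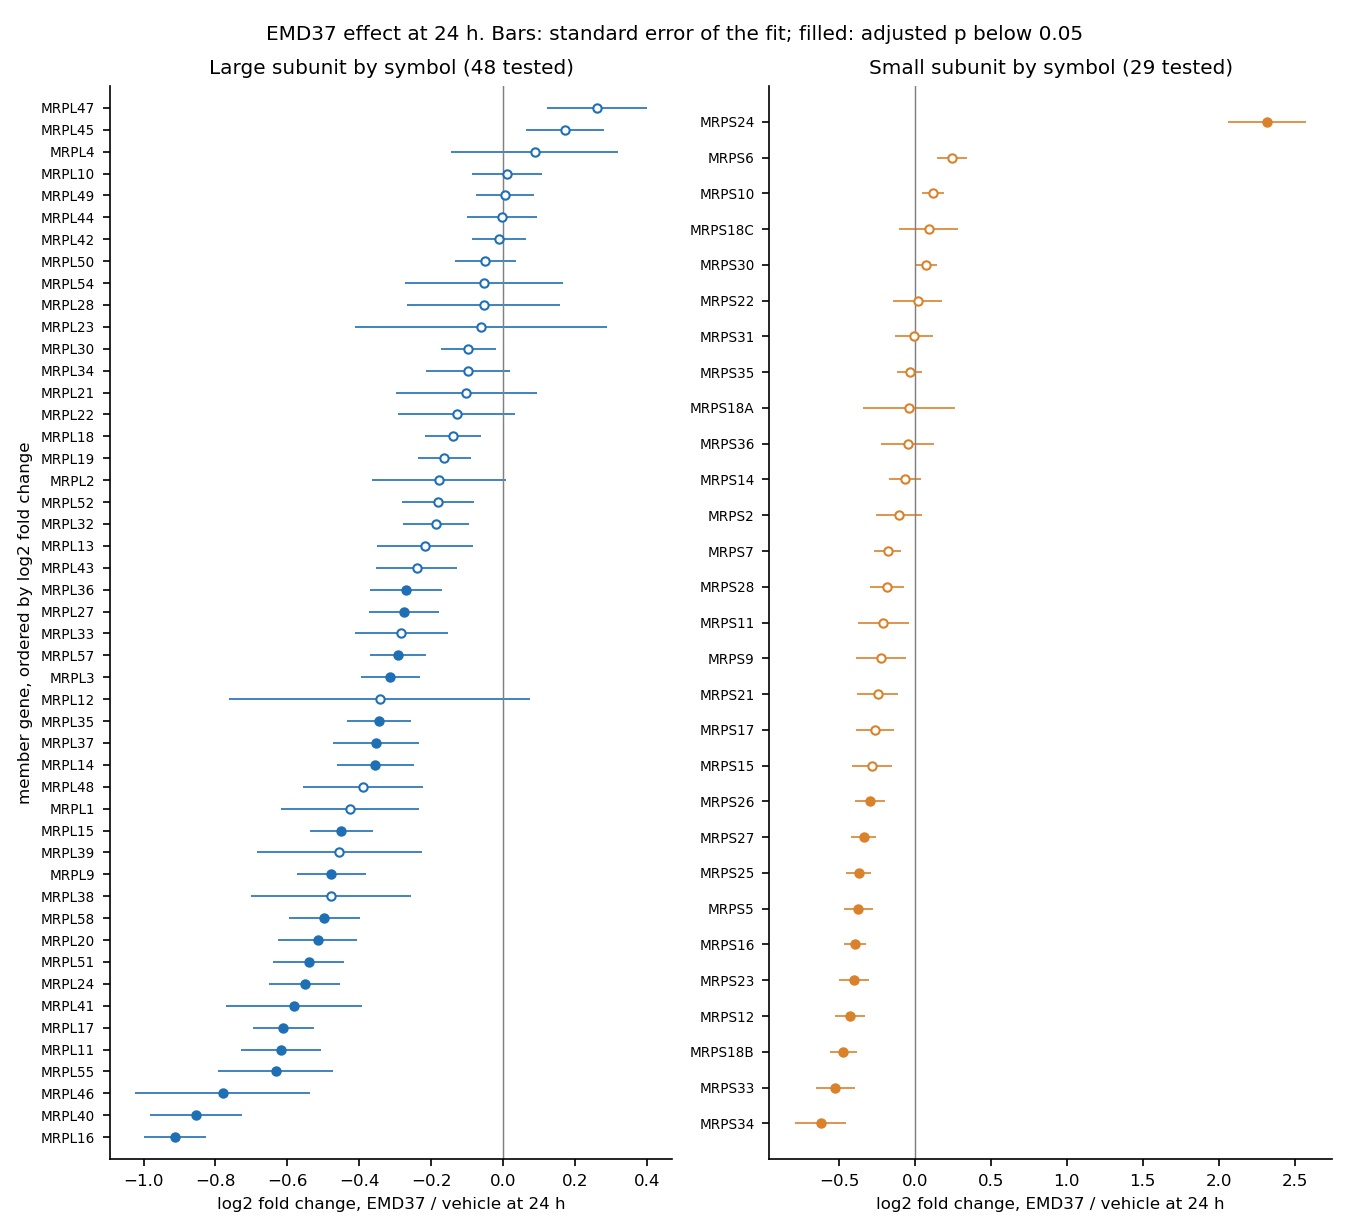
Log2 fold change of EMD37 against vehicle at 24 h (x axis) for each tested member (y axis, ordered by log2 fold change), large subunit left and small subunit right. The 5 recovered members are drawn too, with values from the joined fit. Bars are standard errors derived from the test statistic and filled points have an adjusted p below 0.05. Of the members tested in the count table, 41 of 45 large and 22 of 27 small subunit members lie below 0, and MRPS24 stands alone at 2.32.

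Members of both subunits fell. In the large subunit 19 of 45 members fell (42.2%) and none rose, with a median of -0.28 and a range from -0.91 to 0.26. In the small subunit 10 of 27 fell (37%) and 1 rose, with a median of -0.21 and a range from -0.62 to 2.32. Some members sit in the other subunit than their symbol says. MRPS18A and MRPS30 belong to the large subunit, and MRPS36 is known as a part of the 2-oxoglutarate dehydrogenase complex rather than of the ribosome. With members placed by structure, 19 of 47 large subunit genes and 10 of 24 small subunit genes fell, with medians of -0.27 and -0.24. The difference between the subunits was not tested as such.

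MRPL16, the homologue of bacterial L16, had the largest fall. Its gene (ENSG00000166902) lies on chromosome 11, 59806135 to 59810872, minus strand, on GRCh38. Its mRNA stood at 95.5 and 100.3 CPM in the vehicle libraries at 24 h and at 50.6 and 53.3 CPM with EMD37. The 12 h libraries had 94.9 and 93.3 CPM with vehicle and 85.2 and 94.7 CPM with EMD37. Thus the 2 libraries of EMD37 at 24 h were low and the other 6 lay close together. The log2 fold change at 24 h was -0.91 (standard error 0.087, adjusted p = 3.92e-07 in edgeR's quasi-likelihood test), and it stayed between -0.96 and -0.86 under the 16 alternative settings.

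MRPL40, a large subunit protein found only in mitochondria (ENSG00000185608, chromosome 22, 19431902 to 19436075), had 47.1 and 41.8 CPM with vehicle and 24.1 and 25.1 CPM with EMD37 at 24 h. It fell by 0.85 on the log2 scale (standard error 0.128, adjusted p = 5.62e-05 in edgeR's quasi-likelihood test). MRPL11, whose bacterial counterpart forms the base of the stalk where translation factors bind, went from 50.3 and 44.6 CPM to 30.5 and 31.4 CPM. MRPL11 fell by 0.62 (standard error 0.111, adjusted p = 0.000293). MRPL17 and MRPL24 are counterparts of bacterial proteins near the opening of the exit tunnel. MRPL17 went from 150.7 and 160.9 CPM to 101.4 and 102.6 CPM, a fall of 0.61 (standard error 0.084, adjusted p = 2.18e-05). MRPL24 went from 161.8 and 137.9 CPM to 94.9 and 109.5 CPM and fell by 0.55 (standard error 0.098, adjusted p = 0.000282). The vehicle and EMD37 libraries did not overlap for any of these genes, and these calls held under all 16 alternative settings.

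MRPL51, MRPL41 and MRPL55 are mitochondria-specific proteins of the large subunit. MRPL51 had 313.9 and 261.6 CPM with vehicle and 185.6 and 210.1 CPM with EMD37 at 24 h, and fell by 0.54 (standard error 0.098, adjusted p = 0.000344 in edgeR's quasi-likelihood test). MRPL55 had 15.1 and 17.2 CPM with vehicle and 10.9 and 9.94 CPM with EMD37, a fall of 0.63 (standard error 0.160, adjusted p = 0.0047). MRPL41 had 18.8 and 28.5 CPM with vehicle and 17.5 and 14.0 CPM with EMD37, and its vehicle libraries stood further apart than those of MRPL55. It fell by 0.58 (standard error 0.190, adjusted p = 0.022), but the call was lost without library B of vehicle or of EMD37 at 24 h, with DESeq2 and with the libraries of 24 h only. Over the alternatives its log2 fold change ranged from -0.83 to -0.26 and its adjusted p from 1.14e-05 to 0.25.

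The other large subunit genes that fell were MRPL20, MRPL58, MRPL9, MRPL15, MRPL14, MRPL37, MRPL35, MRPL3, MRPL57, MRPL27 and MRPL36, with log2 fold changes from -0.51 to -0.27. MRPL58 differs from the rest in its known role, since it is also a peptidyl-tRNA hydrolase that frees stalled ribosomes. It had 69.4 and 61.5 CPM with vehicle and 46.1 and 46.7 CPM with EMD37, and fell by 0.50 (standard error 0.099, adjusted p = 0.000788 in edgeR's quasi-likelihood test). MRPL36, the last in that list, had 68.0 and 71.4 CPM with vehicle and 54.9 and 60.6 CPM with EMD37 at 24 h. The 12 h libraries had between 42.8 and 52.3 CPM, below those of EMD37 at 24 h. MRPL36 lost its call in 12 of 16 alternative settings. MRPL27 and MRPL37 each lost theirs in 6, MRPL3, MRPL35 and MRPL57 in 2, and MRPL14 in 1.

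**Figure D2:**
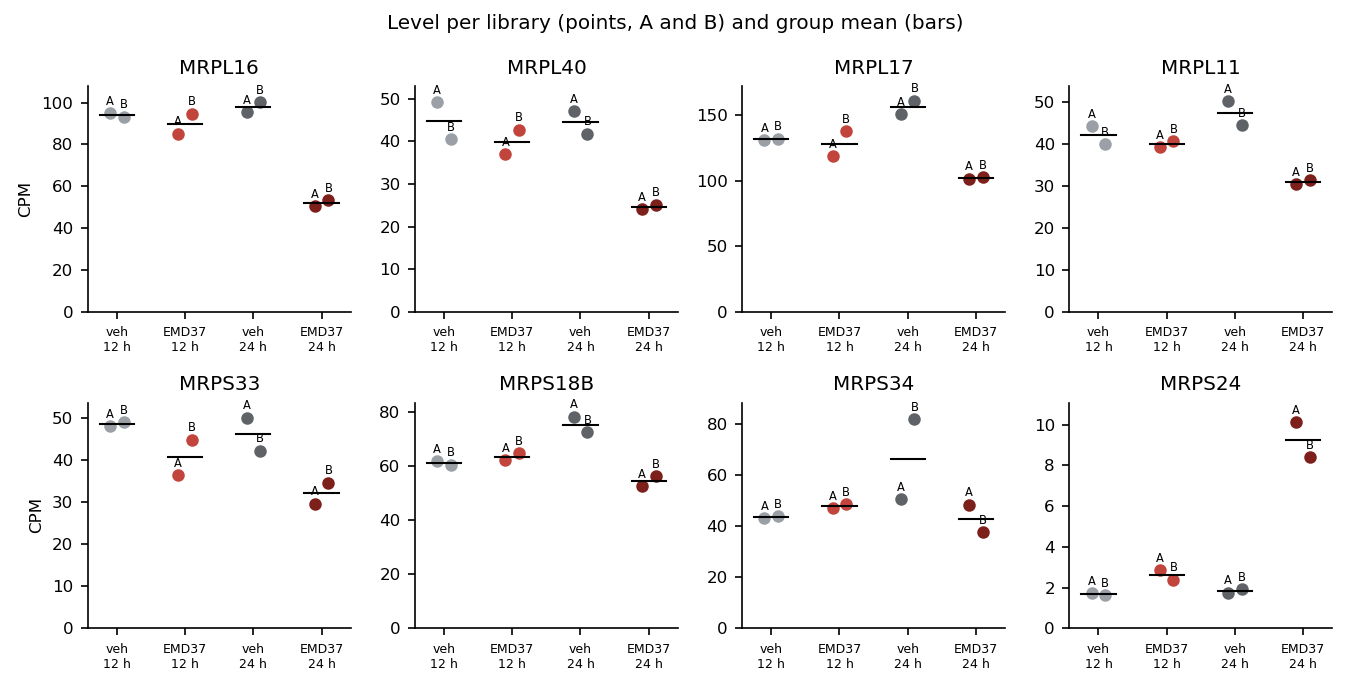
Level in CPM (y axis, from 0) of 8 members in each library, by group on the x axis, with points for libraries A and B and bars for group means. MRPL16, MRPL40, MRPL17, MRPL11, MRPS33, MRPS18B and MRPS34 are lowest in EMD37 at 24 h or, for MRPS34, overlap there with the 12 h groups, and MRPS24 is highest there.

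In the small subunit the leading fall was that of MRPS34, a mitochondria-specific protein, and it rested on few libraries. It had 50.5 and 81.9 CPM with vehicle at 24 h and 48.4 and 37.5 CPM with EMD37, and between 43.1 and 48.5 CPM in the 12 h libraries. Library B of vehicle at 24 h was thus higher than the other 7. MRPS34 fell by 0.62 (standard error 0.169, adjusted p = 0.00749 in edgeR's quasi-likelihood test). Without that library the fold change was -0.24 and the adjusted p was 0.121, and the call was also lost without library B of EMD37. The other alternatives kept it.

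MRPS33, also mitochondria-specific, had 50.1 and 42.2 CPM with vehicle and 29.6 and 34.6 CPM with EMD37 at 24 h, and fell by 0.53 (standard error 0.129, adjusted p = 0.0037 in edgeR's quasi-likelihood test). MRPS12, the counterpart of the bacterial decoding-centre protein S12, went from 64.2 and 66.6 CPM to 50.3 and 47.1 CPM, a fall of 0.43 (standard error 0.100, adjusted p = 0.00285). MRPS16, the counterpart of bacterial S16, went from 256.4 and 269.2 CPM to 195.1 and 204.2 CPM, a fall of 0.40 (standard error 0.072, adjusted p = 0.000327). In each of these the groups did not overlap. MRPS5, the counterpart of S5 at the mRNA entry of the small subunit, went from 57.9 and 55.8 CPM to 42.3 and 45.4 CPM (log2 -0.37). MRPS23 went from 100.3 and 85.5 CPM to 65.2 and 75.5 CPM (log2 -0.40), and MRPS25 from 93.5 and 98.3 CPM to 71.1 and 77.1 CPM (log2 -0.37). MRPS27, a protein with pentatricopeptide repeats, and MRPS26 fell by 0.34 and 0.30. MRPS27 had 150.1 and 141.8 CPM with vehicle and 113.2 and 117.9 CPM with EMD37 at 24 h. Its 12 h libraries, between 107.6 and 124.8 CPM, enclosed the EMD37 values at 24 h. MRPS26 lost its call in 6 of 16 alternative settings, among them DESeq2 and the libraries of 24 h only. The calls of MRPS5, MRPS23, MRPS26, MRPS27 and MRPS33 were lost without library A of EMD37 at 24 h.

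Of the S18 paralogs 1 had a call at 24 h. MRPS18B (ENSG00000204568, chromosome 6, 30617709 to 30626395) had 78.3 and 72.5 CPM with vehicle and 52.6 and 56.2 CPM with EMD37 at 24 h, and fell by 0.47 (standard error 0.090, adjusted p = 0.000508 in edgeR's quasi-likelihood test). MRPS18C had 11.0 and 7.97 CPM with vehicle and 11.1 and 9.27 CPM with EMD37, with no call (log2 0.089, standard error 0.194, adjusted p = 0.749). MRPS18A had between 1.73 and 2.69 CPM in all 8 libraries and no call (log2 -0.038, standard error 0.304, adjusted p = 0.934). At these levels the standard errors of the latter pair are 2 or more times that of MRPS18B, and the difference between paralogs was not tested.

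MRPS24 was the only tested member that rose at 24 h. Its gene (ENSG00000062582) lies on chromosome 7, 43866558 to 43869893, minus strand. It had 19 and 18 reads with vehicle at 24 h and 96 and 87 reads with EMD37. At 12 h it had 17 and 19 reads with vehicle and 31 and 24 reads with EMD37, so that both EMD37 groups lay above their vehicle groups. The log2 fold change at 24 h was 2.32 (standard error 0.258, adjusted p = 2.36e-06 in edgeR's quasi-likelihood test), a 4.99-fold rise. At 12 h it was 0.65 (standard error 0.309, adjusted p = 0.23), with no call. In GENCODE 29, 606 of the 707 bases of the transcript MRPS24-201 (85.7%), and 3 of its 4 exons whole, also belong to URGCP-MRPS24, a transcript that reads through from the neighbouring gene URGCP. URGCP had 38.8 and 50.3 CPM with vehicle and 79.6 and 67.5 CPM with EMD37 at 24 h, and rose by 0.73 (standard error 0.124, adjusted p = 0.000191). Reads of MRPS24 and of the readthrough transcript cannot be told apart in shared exons. The sources used here do not say how the authors' counting treated them, and the part of URGCP in the value of MRPS24 was not tested.

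At 24 h, 42 tested members had no call, 34 of them below 0 and 8 above. Among them MRPL19 was lower without overlap of the groups (log2 -0.16, adjusted p = 0.0889 in edgeR's quasi-likelihood test), with 389.7 and 382.4 CPM against 330.3 and 359.5 CPM. MRPL49 and MRPL42 stood near 0, with log2 fold changes of 0.005 (standard error 0.080) and -0.012 (standard error 0.075). MRPS30, a large subunit protein despite its name, had 154.8 and 153.4 CPM with vehicle and 156.1 and 168.1 CPM with EMD37 (log2 0.073, adjusted p = 0.476). MRPS36 had 13.5 and 12.5 CPM with vehicle and 11.6 and 13.5 CPM with EMD37 (log2 -0.049, adjusted p = 0.851). MRPL47 had the largest value above 0 after MRPS24, at 0.26 (standard error 0.139, adjusted p = 0.149). The share called differed by read level. Of members below 20 CPM, 2 of 18 fell (14.3% of all genes at that level), and from 20 to 60 CPM 12 of 28 did (29%). From 60 to 120 CPM 7 of 10 fell (27.6%), and from 120 CPM on 8 of 16 (26.9%). The 29 that fell had a median level of 63.6 CPM and a median GC content of 51.2%, and the 42 without a call had 29.4 CPM and 44.9%. The part of level and GC content in the calls was not tested beyond an alternative with offsets for GC content, which called 37 members lower (51.4%) and 24.9% of all genes.

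Of the 5 recovered members, MRPL46 fell at 24 h, where 18.5% of all genes in the joined fit fell and 19.3% rose, 37.8% in either direction. MRPL46, a mitochondria-specific large subunit protein, had 12.7 and 7.02 CPM with vehicle and 5.98 and 5.59 CPM with EMD37 (log2 -0.78, standard error 0.243, adjusted p = 0.0159 in edgeR's quasi-likelihood test). Its vehicle libraries were far apart, and the lower of them was close to the EMD37 libraries. MRPL12, the counterpart of the bacterial stalk protein, had 1.52 and 3.75 CPM with vehicle and 2.41 and 1.69 CPM with EMD37, with no call (adjusted p = 0.562). Of its exonic bases 68.2% are shared with the annotated gene AC139530.2. MRPL45, which ties the large subunit to the inner membrane, had 39.7 and 38.3 CPM with vehicle and 41.2 and 46.6 CPM with EMD37 (log2 0.17, adjusted p = 0.229). MRPS21 (log2 -0.25, adjusted p = 0.171) and MRPS6 (log2 0.24, adjusted p = 0.06) had no call either. At 12 h none of the 5 was called in the joined fit, where 2.75% of all genes fell and 4.78% rose, 7.53% in either direction. Among members of the count table that share no exonic base with another annotated gene, 19 of 35 tested fell at 24 h and none rose. Their median was -0.31. In that fit 21.1% of all genes fell and 19.6% rose, and the share among all genes without shared exons was not counted.

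At 12 h few members had changed. In edgeR's quasi-likelihood test 2 of 72 members were called lower (2.78%) and none higher, where 3.43% of all genes fell and 5.27% rose, 8.7% in either direction. At an unadjusted p below 0.05, 9 were lower and 2 higher, a threshold at which the share of all genes was not counted. DESeq2 called no member in either direction, and it called 2.53% of all genes lower and 4.78% higher. The median was -0.066, against -0.006 for all genes, with -0.069 in the large and -0.057 in the small subunit. Below 0 were 49 members (68.1%), as were 51% of all genes. The EMD37 libraries lay below both vehicle libraries in 29 members and above in 8, and 35 overlapped, while 28.4% of all genes lay below and 26.5% above.

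MRPL21, the counterpart of bacterial L21, had 12.1 and 9.66 CPM with vehicle at 12 h and 7.10 and 6.77 CPM with EMD37 (log2 -0.64, standard error 0.194, adjusted p = 0.0498 in edgeR's quasi-likelihood test). At 24 h it had 9.81 and 7.97 CPM with vehicle and 7.92 and 8.69 CPM with EMD37, with overlap. MRPS25, a mitochondria-specific protein, had 97.0 and 98.0 CPM with vehicle at 12 h and 77.3 and 82.6 CPM with EMD37 (log2 -0.29, standard error 0.082, adjusted p = 0.0396). MRPS25 was thus lower at both times, with non-overlapping groups. Neither 12 h call held in every setting: each was lost in 8 of 16 alternatives, among them the omission of any 1 of the 4 libraries at 12 h.

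The test of the difference between the treatment effects at 24 h and 12 h called 15 members lower and 1 higher, where 7.94% of all genes were called lower and 7.96% higher, 15.9% in either direction. In these 15 the log2 fold change of EMD37 against vehicle was lower at 24 h than at 12 h. The median difference over the 72 members was -0.18, against -0.044 for all genes. It was -0.22 in the large subunit, with 11 of 45 called lower, and -0.14 in the small, with 4 of 27 called lower. In 53 of 72 members (73.6%) the 24 h log2 fold change was below the 12 h one, as in 53.6% of all genes tested. At both times 45 members were below 0, a share that was not counted over all genes. Across the 71 members other than MRPS24, the fold changes at 12 h and 24 h had a Pearson's r of 0.057 (0.371 with MRPS24), as a description across genes. All 8 libraries enter this difference, and without library B at 12 h of either vehicle or EMD37 it called 3 members lower, while without library A of EMD37 at 24 h it called 4. Without library A of vehicle or of EMD37 at 12 h it called 7. In these 5 fits between 3.29% and 4.59% of all genes were called lower.

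MRPL55 had the largest difference below 0, at -1.05 (standard error 0.224, adjusted p = 0.00431 in edgeR's quasi-likelihood test). At 12 h it had 12.1 and 11.3 CPM with vehicle and 15.1 and 16.1 CPM with EMD37 (log2 0.42, adjusted p = 0.118, no call), while at 24 h EMD37 lay below vehicle. MRPL16 (-0.85, standard error 0.120, adjusted p = 0.000167) and MRPL17 (-0.57, standard error 0.118, adjusted p = 0.00335) had smaller p-values, and their groups overlapped at 12 h. MRPL17 had 130.9 and 132.0 CPM with vehicle at 12 h and 118.7 and 137.6 CPM with EMD37, with the vehicle values inside the EMD37 range. These 3 genes were called under each of the 15 alternatives. MRPS18B (-0.53, standard error 0.126, adjusted p = 0.00971) had the smallest p of the small subunit. MRPS24 was the member called higher, with a difference of 1.67 (standard error 0.416, adjusted p = 0.0119), which was lost without library A of vehicle or library B of EMD37 at 12 h. In 7 of 72 members (9.72%) the groups did not overlap at either time and lay on opposite sides, as in 7.87% of all genes tested. MRPL55, MRPL37, MRPL18, MRPS18B and MRPS34 were above vehicle at 12 h and below it at 24 h, and MRPS10 and MRPS30 were below at 12 h and above at 24 h. None of the 7 had a call at 12 h. MRPL37, a mitochondria-specific protein, had 26.1 and 25.7 CPM with vehicle and 29.9 and 30.5 CPM with EMD37 at 12 h, and 32.9 and 32.1 against 23.9 and 26.9 CPM at 24 h.

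**Figure D3:**
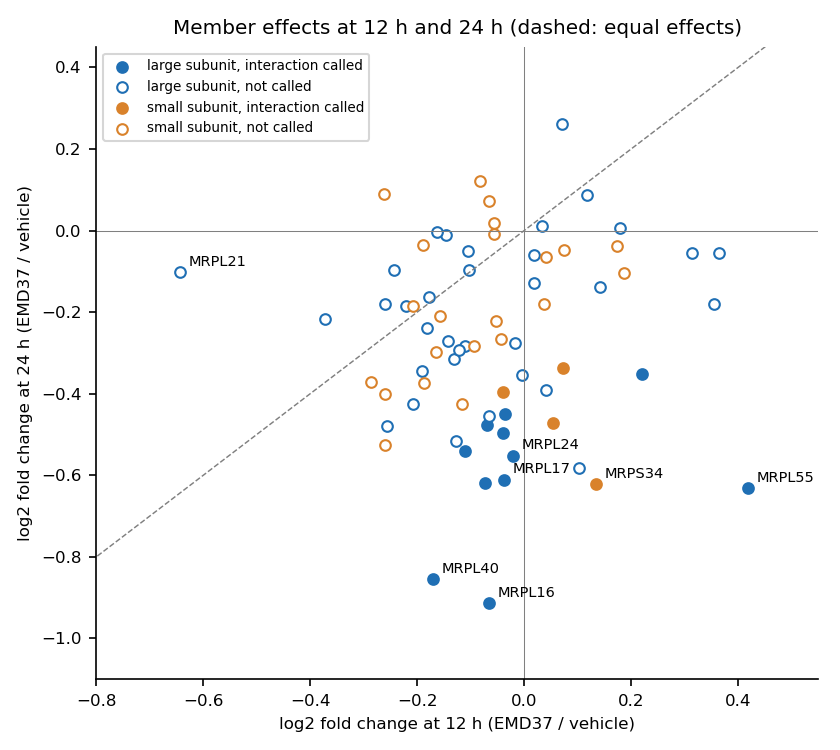
Log2 fold change of EMD37 against vehicle at 12 h (x axis) and at 24 h (y axis) for members tested in the count table, coloured by subunit; filled points had a called difference between the times and the dashed line marks equal effects. MRPS24 (0.65 and 2.32) lies outside the axes. A lower value at 24 h than at 12 h was found in 53 of 72 members and in 53.6% of all genes tested.

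The vehicle cells themselves differed between the times, and these libraries also enter the treatment comparisons. In vehicle at 24 h against 12 h, 7 members rose and none fell, where 2.75% of all genes rose and 3.25% fell, 5.99% in either direction. The median was 0.12, against 0.009 for all genes (0.14 in the large and 0.052 in the small subunit). Both 24 h libraries lay above both 12 h libraries in 34 members and below in 4, while 24% of all genes lay above and 25.5% below. MRPL36, the counterpart of bacterial L36, had 48.1 and 52.3 CPM at 12 h and 68.0 and 71.4 CPM at 24 h (log2 0.47, standard error 0.100, adjusted p = 0.014 in edgeR's quasi-likelihood test). MRPS27 had 117.2 and 107.6 CPM at 12 h and 150.1 and 141.8 CPM at 24 h (log2 0.38, standard error 0.083, adjusted p = 0.0162). MRPL41 (log2 0.74, adjusted p = 0.0327) went from 12.6 and 15.4 CPM to 18.8 and 28.5 CPM. The others were MRPL28, MRPL33, MRPS34 and MRPS14, with log2 fold changes from 0.39 to 0.84 in all 4. Leaving out any single library at 12 h left fewer calls, among members and among all genes. Over all single omissions the median ranged from 0.073 to 0.145 in the large and from 0.012 to 0.096 in the small subunit. Without library A of vehicle at 24 h 12 rose and 2 fell, where 10.1% of all genes rose and 5.98% fell. With offsets for GC content the vehicle calls of MRPL36 (log2 0.13, adjusted p = 0.592), MRPL41 (log2 0.21, adjusted p = 0.382) and MRPS34 (log2 0.23, adjusted p = 0.135) were lost in edgeR's quasi-likelihood test.

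Summed over members of the count table, the large subunit genes had 3630 and 3513 CPM with vehicle at 24 h and 2840 and 3035 CPM with EMD37, and the mean dropped by 17.8%. The small subunit genes had 1862 and 1861 CPM with vehicle and 1593 and 1631 CPM with EMD37, and the mean decreased by 13.4%. At 12 h the large subunit sums were 3452 and 3331 CPM with vehicle and 3118 and 3288 CPM with EMD37. The small subunit sums were 1772 and 1744 CPM with vehicle and 1651 and 1686 CPM with EMD37. In both subunits and at both times the sums with EMD37 lay below those with vehicle, and the gap was wider at 24 h. The ratio of the large to the small subunit sum was 1.949 and 1.887 with vehicle and 1.783 and 1.861 with EMD37 at 24 h. With members placed by structure it was 2.239 and 2.168 with vehicle and 2.108 and 2.215 with EMD37, where the groups overlap. At 12 h the ratio overlapped as well, with 1.947 and 1.910 against 1.888 and 1.950. Taken by symbol, the ratio dropped by 5.01% in the mean at 24 h, and the libraries of a group differed by nearly as much. A two-sided exact permutation test of 2 libraries against 2 cannot go below p = 0.333, and no other test of these sums and ratios was made.

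**Figure D4:**
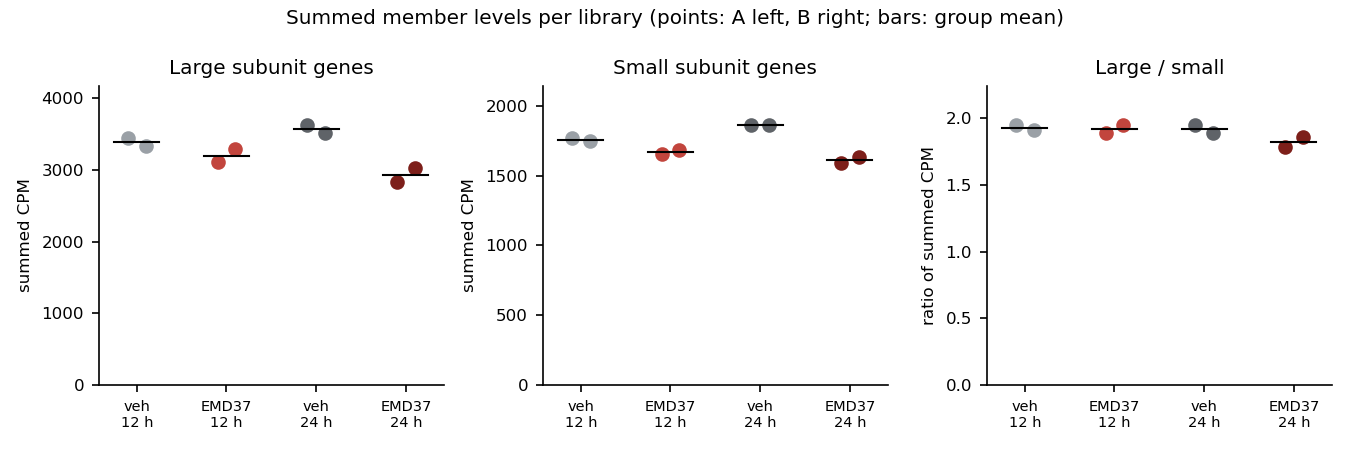
Summed CPM of the large subunit genes, of the small subunit genes, and the ratio of these sums (y axes, from 0) in each library by group (x axis), with points for libraries A and B and bars for group means. The sums are lowest in EMD37 at 24 h (2840 and 3035 CPM large, 1593 and 1631 CPM small), while the ratio stays between 1.783 and 1.950.

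Per median length of a gene's protein-coding transcripts in GENCODE 29, members differed widely in level. MRPL51 was highest with 448 CPM per kb on average over the 8 libraries, followed by MRPL19 with 342, MRPL49 with 326, MRPL35 with 216 and MRPL42 with 197 CPM per kb. The highest small subunit gene was MRPS16 with 147 CPM per kb. MRPL12 (2.09), MRPS18A (2.56), MRPL38 (3.54), MRPL22 (3.88) and MRPL23 (4.37 CPM per kb) were the lowest above the floor. Proteins of the same particle were thus encoded by mRNAs read at widely different levels. Exonic bases shared with other genes were 68.2% in MRPL12, 47.0% in MRPS18A, 41.1% in MRPL38, 0% in MRPL22 and 2.86% in MRPL23. They were 31.3% in MRPL51, 2.87% in MRPL19, 12.2% in MRPL49, 0% in MRPL35 and 1.72% in MRPL42. The part of shared exons and of the transcript length used in these levels was not tested. Of the 5 highest genes MRPL51 and MRPL35 fell at 24 h while MRPL19, MRPL49 and MRPL42 had no call. Promoter letters were found in members with and without a call at 24 h. The ETS letters stood in 13 of 28 members that fell and 15 of 39 without a call, the NRF1 letters in 5 of 28 and 3 of 39, and the YY1 letters in 5 of 28 and 12 of 39, recovered members included. No test was made of these shares.

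Genes that work with the mitochondrial ribosome were followed through 6 lists, whose counts stand beside the 21.1% of all genes that fell and the 19.6% that rose at 24 h. Of 5 mitochondrial ribosomal proteins with other symbols, 1 fell at 24 h, PTCD3, a pentatricopeptide protein of the small subunit (log2 -0.23, standard error 0.076, adjusted p = 0.0225 in edgeR's quasi-likelihood test), and none rose. The median of these 5 was -0.18. DAP3, a GTP-binding small subunit protein, had no call (log2 0.12, adjusted p = 0.3). PTCD3 lost its call in several settings, among them the omission of either library A at 24 h. Of 24 tested genes for assembly of the ribosome, 7 fell (29.2%) and 3 rose (12.5%), with a median of -0.17. Of these 24, 3 were tested in the joined fit, where 18.5% of all genes fell and 19.3% rose. MTERF3, needed for assembly of the large subunit, had 39.0 and 31.4 CPM with vehicle and 16.4 and 16.9 CPM with EMD37 at 24 h (log2 -1.08, adjusted p = 1.35e-05). ERAL1, which binds the small subunit RNA, went from 49.1 and 49.1 CPM to 31.7 and 33.1 CPM (log2 -0.60, adjusted p = 0.000545). MRM1, a methyltransferase of the large subunit RNA, fell by 0.88 in the joined fit (adjusted p = 0.00118). TRUB2, a pseudouridine synthase, rose by 0.51 (adjusted p = 0.000196).

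Further lists covered other parts of mitochondrial gene expression at 24 h, and differences between lists were not tested. Of 16 translation factors, 2 fell and 1 rose, with a median of 0.04. These were MTIF2, the initiation factor (log2 -0.39, adjusted p = 0.0112 in edgeR's quasi-likelihood test), TACO1 (log2 -0.36, adjusted p = 0.0247) and GFM2, which takes part in ribosome recycling (log2 0.30, adjusted p = 0.0452). Each of these 3 calls was lost without library A of EMD37 at 24 h. Of 10 genes for mitochondrial transcription and RNA handling, 4 rose and none fell, with a median of 0.15. TWNK, the helicase of mitochondrial DNA, rose by 0.77 (adjusted p = 4.9e-06), and TFB2M, a transcription factor of the mitochondrial RNA polymerase, had 20.1 and 20.04 CPM with vehicle and 36.6 and 35.9 CPM with EMD37 (log2 0.85, adjusted p = 2.65e-05). Of 14 mitochondrial chaperones and proteases, 6 rose and 2 fell, with a median of 0.26. LONP1, the matrix protease, had 25.2 and 38.5 CPM with vehicle and 70.3 and 60.05 CPM with EMD37 (log2 1.04, adjusted p = 4.69e-05), and HSPA9, the matrix HSP70, had 453.8 and 410.1 CPM with vehicle and 723.4 and 790.9 CPM with EMD37 (log2 0.81, adjusted p = 6.32e-07).

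Of 9 regulators of mitochondrial genes, 5 rose at 24 h and none fell, with a median of 0.25. MYC, a transcription factor of growth and ribosome genes, had 177.7 and 182.1 CPM with vehicle and 536.4 and 514.0 CPM with EMD37 (log2 1.55, standard error 0.071, adjusted p = 7.43e-11 in edgeR's quasi-likelihood test). PPARGC1A, the coactivator PGC-1alpha, had 3.42 and 2.48 CPM with vehicle and 14.4 and 17.1 CPM with EMD37 (log2 2.40, standard error 0.231, adjusted p = 4.72e-07). YY1, whose letters were counted in the promoters above, rose by 0.37 (adjusted p = 0.000744). Of the other factors whose letters were counted, NRF1 went from 21.1 and 20.5 CPM with vehicle to 22.5 and 22.2 CPM with EMD37. For GABP, GABPA went from 68.3 and 68.1 CPM to 74.2 and 87.85 CPM, and GABPB1 from 65.3 and 61.4 CPM to 67.9 and 76.5 CPM. The part of these factors in the members' levels was not tested. At 12 h, where 5.27% of all genes rose and 3.43% fell, 1 of 16 translation factors rose, and 4 of 14 chaperones and proteases rose, among them LONP1 (log2 0.59, adjusted p = 0.027) and HSPD1, the matrix HSP60 (log2 0.38, adjusted p = 0.0113). Of the regulators at 12 h, MYC rose (log2 1.10, adjusted p = 1.74e-08) and PPARGC1B fell (log2 -0.65, adjusted p = 0.0404). The 12 h calls of LONP1 and PPARGC1B were lost without any 1 of the 4 libraries at 12 h, and that of HSPD1 without 3 of them. The 5 mitochondrial ribosomal proteins with other symbols had no call at 12 h, and 1 transcription and RNA gene rose while 1 fell. In the joined fit 1 assembly gene rose at 12 h, where 4.78% of all genes rose.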

How the data were processed

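RNA-seq was made from 8 MDA-MB-231 libraries in 4 groups of 2. Libraries were made from 1 µg of Direct-zol RNA with TruSeq V2, a kit that does not mark strand, per the labels' protocols. The submitters' processing notes name FastQC, STAR, DESeq2 and hg38; the sources used here give no versions, counting program or strand setting. The authors deposited whole-number read counts per gene (count), the input to the tests. In the deposited normalized values (signal), each library's reads had been scaled by 1 size factor. The count table as used here ends inside a line and held 36715 genes. The normalized table held 27682, 6912 of them not in that copy, and multiplying by the size factor gave whole reads for 55296 of 55296 values within 0.01. These genes added 8.26% to 11.66% of reads and entered only the joined fit.

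Genes were named with GENCODE 29 on GRCh38. Tests used edgeR 4.0.16 (R 4.3.3). Its filterByExpr, at a minimum count of 10, left 14850 genes, with TMM factors from 0.948 to 1.03. One mean per group was fitted over all 8 libraries, with a biological coefficient of variation of 0.0733 and 4 residual degrees of freedom. Calls used the quasi-likelihood test with Benjamini-Hochberg adjustment over all genes tested at an adjusted p below 0.05, without a replicate block. Standard errors were derived from the test, as the absolute log2 fold change divided by the square root of its F statistic. The script was tested on simulated data. The alternatives were RLE size factors, no filter, DESeq2 1.42.0, the joined table, the replicate block, libraries of the same time only, subunits by structure and each library left out. Added after seeing the data were offsets for GC content (a spline with 4 degrees of freedom), a crossed block and members sharing no exonic base.

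Members named with values were all those called at 12 h, the 8 largest falls and rises per subunit among calls at 24 h, and the 3 of smallest p each way in the other 2 comparisons. Paralogs, members with other roles, the highest and lowest levels and members not in the count table were added. In the lists up to 3 genes of smallest p could be named. DAP3, MTIF2, TACO1, HSPD1, NRF1, GABPA, GABPB1 and URGCP were also named after their values were seen. So were members given as examples without a call. The members and lists were chosen with earlier results of these data known.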

Additional observations from a re-analysis of the deposited data

Results flagged for a closer look

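By edgeR's quasi-likelihood interaction test at an adjusted p below 0.05, the effect of EMD37 differed between 24 h and 12 h in 16 members. Of the 72 tested, 15 were called lower (20.8%) and 1 higher (1.39%), against 7.94% and 7.96% of all genes. In the large subunit the log2 difference was -1.05 for MRPL55, -0.85 for MRPL16, -0.68 for MRPL40, -0.57 for MRPL17, -0.57 for MRPL37, -0.55 for MRPL11, -0.53 for MRPL24, -0.46 for MRPL58, -0.43 for MRPL51, -0.41 for MRPL15 and -0.41 for MRPL9. In the small subunit it was -0.76 for MRPS34, -0.53 for MRPS18B, -0.41 for MRPS27, -0.36 for MRPS16 and 1.67 for MRPS24. The value of MRPS34 ranged from -1.04 to -0.38 over the alternatives and its call was lost in 7 of 15, with -0.38 and an adjusted p of 0.0914 without library B of vehicle at 24 h. MRPL16, MRPL17 and MRPL55 were called under all 15 alternatives run for this difference, and MRPL9 was lost in 13 of them. MRPL58 was lost in 11, MRPL51 in 10, MRPL15 in 9, MRPL11 and MRPS27 in 8, and MRPL37 and MRPS16 in 7. MRPL24, MRPL40 and MRPS18B were lost in 3 and MRPS24 in 2.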

How the results depend on the processing

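No member called in a comparison changed sign under any setting run. Of 30 members called at 24 h, 16 were called under every setting, as were 3 of 16 in the difference between times, 0 of 2 at 12 h and 0 of 7 in vehicle 24 h against 12 h. At 12 h the lower calls were 1 with no filter (1.85% of all genes), 0 with DESeq2 (2.53%) and 0 with the replicate block (2.64%). They were 4 with GC offsets (7.52% of all genes). With libraries of that time only, 5 members were lower and 1 higher (7.85% lower and 9.87% higher of all genes). Members sharing no exonic base had medians at 24 h of -0.35 (large) and -0.28 (small), and of -0.32 (large) for the difference between times. That difference had 8 lower calls with no filter (3.48% of all genes) and 8 with DESeq2 (6.46%). The cause of these shifts was not tested.

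With each library left out, lower calls ranged from 0 to 4 at 12 h, from 17 to 30 at 24 h (1 to 2 higher) and from 3 to 14 in the difference (0 to 1 higher). In vehicle 24 h against 12 h they ranged from 0 to 12 higher and 0 to 2 lower. Medians (large, small subunit) ranged from -0.116 to -0.024 and -0.1 to -0.036 at 12 h, -0.36 to -0.21 and -0.23 to -0.17 at 24 h, -0.29 to -0.13 and -0.18 to -0.06 in the difference, and 0.073 to 0.14 and 0.012 to 0.096 in vehicle. An arm with 1 library is assumed to vary like the others. The shares of all genes called also changed between these fits, in each comparison. The ranges of calls therefore cannot separate a change in the members from a change over all genes.

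The labels do not say whether A and B pair the samples. Differences of A minus B correlated across genes at -0.04 between treatments at 12 h and -0.16 at 24 h. Between times they correlated at 0.16 in vehicle and 0.012 in EMD37. Such values show no large shared difference and cannot tell whether the libraries were handled as pairs. The replicate block called 4 members higher in vehicle 24 h against 12 h (2.2% of all genes). With the letters of EMD37 at 24 h swapped (the crossed block), 14 were called higher (6.88%). Members below 20 CPM rest on few reads.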
